A study of Mus musculus with 12 samples.

Results

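Mouse embryonic stem cell lines without miRNA processing were set against lines with it, and the genes sought were those whose level separated every library of one class from every library of the other. The rule for membership used the library names alone: the 4 libraries of the lines KO and 41585 formed the miRNA-deficient class, and the 8 libraries of the lines WT, SOM, 41584 and 41589 formed the miRNA-competent class, of 12 libraries in the series. KO cells lack Dicer according to their label. The line 41585 is a Dicer-complemented line whose label gives it neither miRNA nor siRNA processing. Of the competent lines, WT is the control line, 41584 is labelled as resembling WT, 41589 is labelled as lacking siRNA processing alone, and the label of SOM states nothing on processing, so its class rests on the rule. All 6 lines are E14 cells of the 129/Ola background, grown on gelatin in serum and LIF, and puromycin was in the medium of every line, controls included. Poly(A) RNA was read from reverse-stranded TruSeq libraries, 2 per line. The labels do not say whether a line is 1 clone, what SOM and the numbers stand for, which part of Dicer1 was deleted or put back, or whether the 2 libraries of a line came from separate cultures.

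Dicer is the ribonuclease that cuts miRNA hairpins and long double-stranded RNA into the short RNAs that guide Argonaute proteins. A miRNA pairs through its seed, bases 2 to 8, with sites mostly in 3′ UTRs, and the paired mRNA is destabilised and translated less. In mouse embryonic stem cells the most abundant miRNAs come from the miR-290 and miR-302 clusters and share a seed that begins AAGUGC, and the related miR-17 family carries the same letters shifted by 1 base. The let-7 family, which is held back in these cells by the Lin28 proteins, accumulates on differentiation.

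The libraries held 5348401 to 10428509 counted reads, and the summed libraries of a line held 11209378 to 20047026. The first principal component of log2 CPM (counts of a gene relative to the library total after TMM scaling) carried 45.8% of the variance and placed the 4 deficient libraries between −83.8 and −57.8 and the 8 competent libraries between 5.7 and 72.6. The second, with 19.3%, split the competent class across its own lines. Both SOM libraries and replicate 2 of 41584 and of 41589 lay between −52.9 and −40.5, whereas both WT libraries and replicate 1 of 41584 and of 41589 lay between 9 and 55. Results are therefore also given against each of these sets of 4 competent libraries, called here the SOM-side and the WT-side set; this division was chosen after seeing the data. Stem cell markers (Pou5f1, Sox2, Nanog, Zfp42, Esrrb) summed to 2349 to 2857 CPM in deficient and 2701 to 3307 CPM in competent libraries. The 5 fibroblast markers summed to 8.92 to 17.9 CPM in deficient and 8.23 to 40.8 CPM in competent libraries, with Col1a2 and Col3a1 under 1 CPM in every library. For neuroectoderm the sums were 16.1 to 37.5 CPM in deficient and 13.0 to 28.9 CPM in competent libraries, with Neurog2 under 1 CPM throughout.

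Dicer1 itself did not separate the classes. It measured 28.5 and 44.0 CPM in KO and 29.2 and 39.2 CPM in 41585, against 197 and 214 CPM in WT, 105 and 215 CPM in SOM, 42.2 and 55.0 CPM in 41584, and 40.3 and 27.8 CPM in 41589. The competent lines 41584 and 41589 thus had Dicer1 read levels near those of the deficient lines, and the classes overlapped. The log2 fold change, deficient over competent, was −1.65 ± 0.69 (standard error) and was not called by edgeR's quasi-likelihood test on line sums (Benjamini-Hochberg adjusted p = 0.116, 2 lines against 4). With single libraries as replicates it was called (edgeR adjusted p = 0.0301), as it was with line 41589 left out (edgeR adjusted p = 0.0362). The counts do not show which part of Dicer1 the reads cover, so they are no check of the protein put back.

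Of 15505 genes tested, 2106 (13.6%) were called higher and 1294 (8.35%) lower in the deficient lines at an adjusted p under 0.05, and the median log2 fold change over all tested genes was 0.023. Complete separation of single libraries, with all 4 deficient libraries above all 8 competent ones, held for 1548 genes (9.98%), and the reverse order held for 1128 (7.28%). Both conditions were met by 1414 genes higher in the deficient lines (9.12% of those tested) and by 837 genes lower (5.4%), and these 2251 genes are described here as the separating genes. Among the higher ones the median log2 fold change was 1.6, 488 exceeded 4-fold and 97 exceeded 16-fold. Among the lower ones the median was −1.19, 236 exceeded 4-fold and 27 exceeded 16-fold. The higher set also held 287 genes whose competent mean was under 1 CPM, and the lower set 182 genes whose deficient mean was under 1 CPM.

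The distance between the nearest libraries of the classes was often small. It exceeded 2-fold on the log2(CPM + 0.5) scale for 250 of the 1414 higher genes and for 55 of the 837 lower genes, and 4-fold for 55 and 7 of them. The lowest deficient library of a higher gene was KO replicate 2 for 557 genes, and the highest competent library was replicate 2 of 41589 for 306. For lower genes KO replicate 2 was the nearest deficient library in 383. The deficient lines KO and 41585 differed by less than 2-fold in their means for 1365 of the higher genes (96.5%) and 815 of the lower genes (97.4%). The selection of these genes favours likeness of the 2 lines, and the share over all tested genes was not computed, so these values are no sign of a shared response. A further 692 genes called higher and 457 called lower did not separate every library, and 134 and 291 genes separated without a call.

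**Figure D1:**
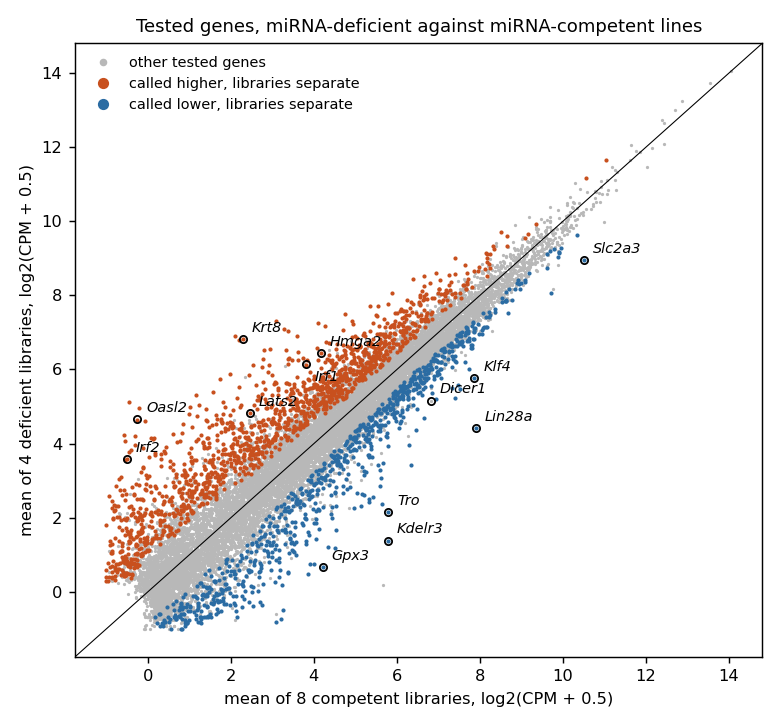
Mean level of every tested gene in the 4 deficient libraries (vertical axis) and the 8 competent libraries (horizontal axis), both as log2(CPM + 0.5), with the diagonal marking equal levels. Orange points are the 1414 separating genes higher in the deficient lines, blue points the 837 lower, grey points the rest, and circles mark named genes, Dicer1 among them below the diagonal but not coloured.

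Separation and calls rested unequally on the lines. Of the 1414 higher genes 1034 kept their call whichever library was left out and 690 whichever line was left out, and of the 837 lower genes 453 and 249 did. Without replicate 1 of 41589 the test called 1366 genes higher and 608 lower. Without replicate 2 of WT it called 792 genes lower, and without replicate 1 of 41584 it called 765 lower. Against the WT-side competent libraries alone 2620 genes were called and separating higher and 2208 lower, and against the SOM-side libraries alone 1311 higher and 459 lower. Of the separating genes, 1000 of the 1414 higher and 370 of the 837 lower were called against the SOM-side libraries, and 1362 and 782 against the WT-side libraries. Lower genes therefore depended more on the choice of competent libraries than higher genes did, in counts.

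The sequences of the miRNAs that could act on these genes are shown first, because the seed decides which 3′ UTR sites are counted further on. They are the mature forms in RefSeq (GRCm38.p6), with the seed, bases 2 to 8, in capitals.

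mmu-miR-294-3p: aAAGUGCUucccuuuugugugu

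mmu-miR-302b-3p: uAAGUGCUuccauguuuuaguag

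mmu-miR-17-5p: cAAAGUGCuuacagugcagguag

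mmu-let-7a-5p: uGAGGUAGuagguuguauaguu

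The first pair shares the seed AAGUGCU, so that 1 site, AGCACTT, serves both, and miR-17-5p, of the seed AAAGUGC, pairs with the overlapping letters GCACTTT. The gene of miR-294 lies on chromosome 7, that of miR-302b on chromosome 3, that of miR-17 on chromosome 14 and the let-7a gene shown on chromosome 13. The libraries hold poly(A) RNA, so none of these mature miRNAs was measured.

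Reported targets of the AAGUGC-seed miRNAs were higher in the deficient lines wherever they were called. Of 19 tested members, 11 were called and separating higher and 0 lower, against 9.12% and 5.4% of all tested genes. Called with or without separation were 13 higher and 0 lower, beside 13.6% and 8.35% of all tested genes. The median log2 fold change of the list was 0.91, beside 0.02 over all tested genes, and 19 of 19 values were above 0. The members were chosen with earlier results of these data known, so the excess is a description and no independent support. Against the SOM-side libraries alone 9 members were called and separating higher, beside 1311 of all 15505 tested genes. Against the WT-side libraries 12 were, beside 2620.

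The largest change in that list was in Irf2, a transcription factor of the interferon response (chromosome 8, 46739732 to 46847458). Irf2 measured 15.7, 7.69, 7.96 and 14.6 CPM in the deficient libraries, against a lowest, median and highest of 0.0, 0.108 and 0.77 CPM in the competent ones. The nearest libraries of the classes were 6.45-fold apart on the log2(CPM + 0.5) scale, and the log2 fold change was 5.99 ± 0.46 (edgeR adjusted p = 0.000156). Lefty1, a secreted inhibitor of Nodal, measured 20.2, 30.8, 45.3 and 33.9 CPM in the deficient libraries, against 1.71, 4.46 and 7.13 CPM (lowest, median, highest) in the competent ones. The classes stood clearly apart, with a log2 fold change of 2.95 ± 0.32 (edgeR adjusted p = 0.000563). Dazap2, a small proline-rich protein, measured 398, 393, 390 and 289 CPM in the deficient libraries, against 66.3, 103 and 139 CPM in the competent ones, with replicate 2 of 41585 the lowest of its class. Its log2 fold change was 1.93 ± 0.16 (edgeR adjusted p = 0.000194).

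Lats2, a kinase of the Hippo pathway (chromosome 14, 57689662 to 57758388), measured 29.8, 22.3, 24.0 and 35.4 CPM in the deficient libraries, against 1.23, 4.11 and 11.3 CPM (lowest, median, highest) in the competent ones. Within the competent class the WT libraries were lowest and SOM replicate 2 was highest, and no competent library reached the deficient range. The log2 fold change was 2.56 ± 0.47 (edgeR adjusted p = 0.0055), and the call was lost with line 41585 left out (edgeR adjusted p = 0.054). Nr2f2, a nuclear receptor known as COUP-TFII, measured 3.9, 2.46, 3.51 and 4.37 CPM in the deficient libraries, against at most 0.564 CPM, with a median of 0.0 CPM, in the competent ones (5.34 ± 0.64, edgeR adjusted p = 0.000787). Tgfbr2, the type II receptor of TGF-beta, measured 7.67, 10.8, 6.32 and 3.98 CPM in the deficient libraries, against 1.1, 2.13 and 3.24 CPM in the competent ones. Its log2 fold change of 1.85 ± 0.38 was called (edgeR adjusted p = 0.00923), but not with line KO left out (edgeR adjusted p = 0.088).

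Smaller changes were found in Casp2, an initiator caspase, and Ei24, an endoplasmic reticulum protein of the p53 response. Casp2 measured 62.1, 65.1, 58.9 and 53.6 CPM in the deficient libraries, against 26.5, 33.9 and 41.6 CPM in the competent ones (0.85 ± 0.16, edgeR adjusted p = 0.0065), and its call was lost with line KO left out (edgeR adjusted p = 0.0534). Ei24 measured 476, 493, 392 and 541 CPM in the deficient libraries, against 238, 285 and 342 CPM in the competent ones (0.78 ± 0.12, edgeR adjusted p = 0.00256), and was not called against the SOM-side libraries alone (edgeR adjusted p = 0.0526). The methyl-CpG binding protein gene Mbd2 (0.76 ± 0.16), the chromatin remodelling subunit gene Smarcc2 (0.91 ± 0.20) and the actin regulator gene Cfl2 (0.71 ± 0.16) completed the 11. Each of these 3 lost its call when 1 of several lines was left out, Smarcc2 also without replicate 1 of 41589 and Cfl2 without replicate 2 of WT. The Nodal inhibitor gene Lefty2 (0.99 ± 0.27) and the kinase gene Akt1 (1.22 ± 0.24) were called without separating, and lost their calls without single libraries, Akt1 without replicate 1 of 41589 and Lefty2 without replicate 2 of KO, either library of WT, replicate 2 of SOM, replicate 1 of 41584 or replicate 2 of 41589. Cdkn1a, the p21 inhibitor of cyclin-dependent kinases, had a log2 fold change of 1.16 ± 0.37 and missed the threshold (edgeR adjusted p = 0.0502), with 92.4, 89.7, 119 and 138 CPM in the deficient libraries against 22.3, 43.6 and 105 CPM in the competent ones.

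Several of these mRNAs carry the AGCACTT site in their longest annotated 3′ UTR (GENCODE M21, GRCm38). The sites are shown with their surroundings for genes described in this section, 28 bases each, in the sense of the mRNA, with the bases that match the seed of miR-294-3p and miR-302b-3p in capitals.

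Lats2: agtatggaaagAGCACTTattttgtgga

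Lefty1: actgtatgcgaAGCACTTacatgtatag

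Irf2: ccttatcttgaAGCACTTacaataggcc

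Casp2: tataacctagaAGCACTTgtctctgctc

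Tgfbr2: gggatagcgttAGCACTTgacaatcagt

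Dazap2: cacataccttcAGCACTTctcacaatgt

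Oasl2: gcctttatctcAGCACTTagagaatttc

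Ccnd1: ttccatttcaaAGCACTTttggtcagct

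The Lats2 stretch lies at chr14:57691077-57691104 on the minus strand, the Lefty1 stretch at chr1:180938202-180938229 on the plus strand and the Irf2 stretch at chr8:46846653-46846680 on the plus strand. In Lats2, Lefty1, Irf2 and Oasl2 the site is followed by an A, a context known to strengthen pairing sites. The Tgfbr2 UTR holds 3 such sites and the Lats2 UTR 2, of which the first is printed. The Ccnd1 stretch also holds GCACTTT, the letters of the miR-17 family. A match of letters is a description of the sequence and no measure of binding.

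Across all genes with a 3′ UTR of at least 50 bases, AGCACTT stood in 23.0% of the separating higher genes (298 of 1294) and in 15.5% of the lower genes (123 of 792), beside 17.6% of all 13313 tested genes with such a UTR. The median UTR was 1205 bases in the higher, 1445 bases in the lower and 1186 bases in all these genes, so the lower genes had the longer UTRs and the smaller share of sites. Within 4 classes of UTR length with equal numbers of genes, from short to long, the shares were 3.16, 15.2, 25.4 and 47.1% in the higher genes, 0.629, 6.88, 14.5 and 32.8% in the lower genes, and 2.79, 9.53, 19.4 and 38.9% in all. In each class the higher genes had the largest share and the lower genes the smallest. GCACTTT, which overlaps with it by 6 letters, behaved alike, with 21% of the higher, 12.8% of the lower and 14.5% of all genes.

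Sites of 3 other miRNAs did not show this order over all lengths. CTACCTC, the let-7 site, stood in 11% of the higher, 12.2% of the lower and 10.7% of all genes. ACATTCC, the site of the muscle miRNA miR-206, stood in 13.1% of the higher, 13.3% of the lower and 11.4% of all genes. AACTGAC, the site of the myeloid miRNA miR-223, stood in 8.66% of the higher, 11.6% of the lower and 9.43% of all genes. Over all lengths the share of each in the higher genes was below that in the lower genes, but the lower genes had the longer UTRs, and within length classes the order varied. From short to long, the let-7 site stood in 1.4, 9.48, 12.4 and 19.7% of the higher, 1.89, 5.82, 10.5 and 25.4% of the lower and 2.55, 6.4, 12.2 and 21.9% of all genes, so the second and the third class showed the order of AGCACTT. The miR-206 site stood in 1.4, 8.62, 11.2 and 30.6% of the higher, 2.52, 8.47, 9.0 and 27.5% of the lower and 2.4, 6.79, 11.5 and 24.9% of all genes. For miR-206 the higher genes thus had a larger share than the lower genes in every class but the shortest. The miR-223 site stood in 2.11, 3.16, 8.36 and 21% of the higher, 2.52, 6.88, 9.5 and 23.0% of the lower and 1.65, 5.2, 8.83 and 22.1% of all genes, with the lower genes ahead in each class. The shares are descriptions over genes, which are no replicates, and no test was made on them.

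**Figure D2:**
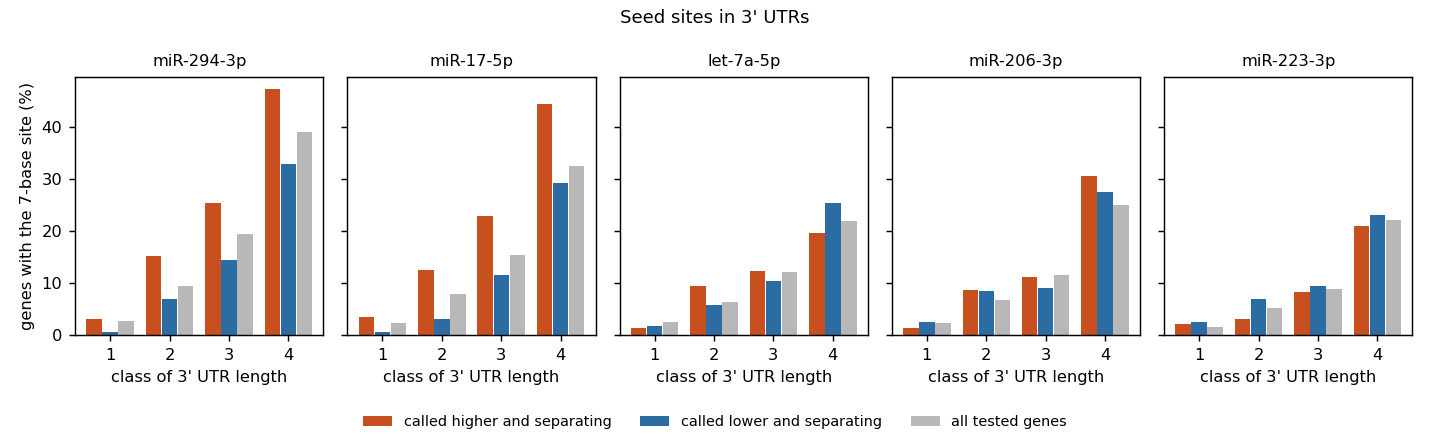
Percent of genes with the 7-base seed site of 5 miRNAs in the 3′ UTR (vertical axis), in 4 classes of UTR length from short (1) to long (4) (horizontal axis), for separating genes higher (orange) and lower (blue) in the deficient lines and all tested genes with a UTR (grey). For miR-294-3p and miR-17-5p orange stands above grey and grey above blue in every class, while for let-7a-5p and miR-206-3p the order changes between classes and for miR-223-3p blue stands highest in each.

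Reported let-7 targets did not move together. Of 20 tested members, 5 were separating higher and 2 lower, beside 9.12% and 5.4% of all tested genes, with a median log2 fold change of 0.27. In all 7 higher and 2 lower were called, beside 13.6% and 8.35% of all tested genes. Hmga2, an architectural chromatin protein (chromosome 10, 120361275 to 120476469), measured 101, 73.4, 68.0 and 102 CPM in the deficient libraries, against 11.4, 14.6 and 29.8 CPM in the competent ones. All deficient libraries lay over 2-fold above the competent range (2.37 ± 0.26, edgeR adjusted p = 0.000568). Thbs1, the secreted glycoprotein thrombospondin 1, measured 16, 26, 17.1 and 8.48 CPM in the deficient libraries, against 0.621, 1.81 and 3.19 CPM in the competent ones (3.22 ± 0.32, edgeR adjusted p = 0.000361). Igf2bp2, an mRNA-binding protein, measured 190, 155, 169 and 221 CPM in the deficient libraries, against 77.9, 110 and 121 CPM in the competent ones (0.86 ± 0.14, edgeR adjusted p = 0.003). Nras, a Ras GTPase gene, was lower (−0.98 ± 0.17, edgeR adjusted p = 0.00509).

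The other lower gene of that list was Lin28a, the RNA-binding protein that blocks let-7 maturation (chromosome 4, 134003330 to 134018841). Lin28a measured 18.5, 24.1, 18 and 22.3 CPM in the deficient libraries, against 121, 237 and 326 CPM in the competent ones, with WT replicate 1 the lowest of the competent libraries. The nearest libraries of the classes were 4.92-fold apart (log2 fold change −3.49 ± 0.25, edgeR adjusted p = 0.000117). Its paralog Lin28b measured 85.1, 67.8, 58.9 and 72.6 CPM in the deficient libraries, against 26.3, 41.5 and 52.7 CPM in the competent ones. Lin28b was thus called in the opposite direction (0.88 ± 0.20, edgeR adjusted p = 0.0139), and lost its call with line KO left out (edgeR adjusted p = 0.118) or line 41585 left out (edgeR adjusted p = 0.0682).

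Among 19 tested genes of the small RNA machinery, 4 were separating higher and 1, Lin28a, lower, beside 9.12% and 5.4% of all tested genes. The median log2 fold change was −0.01. Ago1, one of the Argonaute proteins, measured 226, 213, 212 and 300 CPM in the deficient libraries, against 57.5, 88.2 and 151 CPM in the competent ones (1.31 ± 0.19, edgeR adjusted p = 0.00211). Tnrc6a, a GW182 scaffold that Argonautes bind, measured 291, 311, 250 and 283 CPM in the deficient libraries, against 118, 146 and 198 CPM in the competent ones (0.93 ± 0.13, edgeR adjusted p = 0.0016). Its relative Tnrc6b was also called and separating (0.88 ± 0.22, edgeR adjusted p = 0.021), but not called without replicate 1 of 41589 (edgeR adjusted p = 0.0542). Ago2 (−0.20 ± 0.20), the nuclear processing enzyme Drosha (0.25 ± 0.13) and its partner Dgcr8 (0.09 ± 0.15) were not called. The terminal uridylyltransferase gene Tut4 was called lower without separating (−0.80 ± 0.21, edgeR adjusted p = 0.024), but not without replicate 2 of WT, replicate 2 of SOM or replicate 1 of 41589 (highest edgeR adjusted p = 0.0945).

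The list of miRNA host transcripts had 2 of 11 tested members separating higher and 0 lower (median 0.24), beside 9.12% and 5.4% of all tested genes. Larp7, which encodes a protein of the 7SK particle, had a log2 fold change of 0.70 ± 0.18 (edgeR adjusted p = 0.0262). Its locus on the minus strand holds miR-302b on the plus strand, so Larp7 mRNA is not the host transcript of that miRNA. Mir142hg, the host of a blood cell miRNA, had a log2 fold change of 2.96 ± 0.80 (edgeR adjusted p = 0.0297). Larp7 was not called without replicate 2 of SOM, replicate 1 of 41584 or replicate 1 of 41589 (highest edgeR adjusted p = 0.126), nor Mir142hg without replicate 1 of KO (edgeR adjusted p = 0.0572). Mir17hg, the host of the miR-17 cluster, had 0.12 ± 0.20 and was not called. The host transcripts Meg3 and Rian of the imprinted Dlk1-Dio3 region varied within both classes. Meg3 measured 135, 1.08, 93.1 and 167 CPM in the deficient libraries, with KO replicate 2 nearly silent. It measured 1.53 to 202 CPM in the competent ones, with replicate 1 of 41584 lowest. Rian was called lower without separating (−0.73 ± 0.22, edgeR adjusted p = 0.0468), a call lost without any 1 of 8 libraries. With or without separation 3 members were called higher and 1, Rian, lower, beside 13.6% and 8.35% of all tested genes.

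Interferon and double-stranded RNA response genes that were called against all competent lines were higher in the deficient lines, and Oasl2, Psmb8 and Gbp2 of this list were among the 12 named genes of largest rise. Of 32 tested members, 18 were separating higher and 0 lower, against 9.12% and 5.4% of all genes, with a median log2 fold change of 1.63. Called in all were 21 higher and 0 lower, beside 13.6% and 8.35% of all tested genes. Members of this list were chosen with earlier results of these data known, so the excess is a description. With line KO or line 41585 left out the count of members separating higher was also 18. It was 20 against the SOM-side and 21 against the WT-side libraries. Over all 15505 tested genes the counts were 1245 without line KO and 940 without line 41585. They were 1311 against the SOM-side and 2620 against the WT-side libraries. Against the WT-side libraries 1 member was also called and separating lower, B2m, the light chain of MHC class I (−0.71, edgeR adjusted p = 0.0474). Irf7, Isg15, Ifit3, Cxcl10 and Usp18 did not pass the filter on low counts.

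Oasl2, an oligoadenylate synthetase-like protein (chromosome 5, 114896936 to 114912234), measured 35.3, 29.5, 24.1 and 9.38 CPM in the deficient libraries, against 0.0, 0.245 and 1.32 CPM in the competent ones (6.32 ± 0.57, edgeR adjusted p = 0.000247). Psmb8, a catalytic subunit of the immunoproteasome, measured 9.13, 4.0, 8.66 and 5.27 CPM in the deficient libraries, against at most 0.214 CPM in the competent ones (6.10 ± 0.40, edgeR adjusted p = 9.8e-05). Gbp2, a guanylate-binding GTPase (chromosome 3, 142620602 to 142638008), measured 16.6, 11.7, 12.8 and 13.7 CPM in the deficient libraries, against 0.0, 0.141 and 0.685 CPM in the competent ones. The nearest libraries were 10.3-fold apart for Gbp2 (5.88 ± 0.50, edgeR adjusted p = 0.000212), which has near-identical relatives, Gbp2b among them, so reads could be divided between them.

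The transcription factor Irf1 was expressed in both classes. It measured 69.4, 58.7, 76.4 and 74.1 CPM in the deficient libraries, against 8.94, 12.7 and 21.8 CPM in the competent ones, and the lowest deficient library lay 2.65-fold above the highest competent one (2.4 ± 0.20, edgeR adjusted p = 0.000205). Irf9, a subunit of the factor that answers type I interferon, measured 54.4, 51.5, 50.2 and 55.2 CPM in the deficient libraries, against 13.3, 18.5 and 22.1 CPM in the competent ones (1.59 ± 0.17, edgeR adjusted p = 0.000468). Stat2, which acts in a complex with Irf9, had a log2 fold change of 0.08 and was not called.

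Sensors and effectors differed in how far they moved. Ifih1, the sensor MDA5, measured 4.26, 1.85, 1.99 and 0.257 CPM in the deficient libraries, against at most 0.154 CPM in the competent ones. KO replicate 1 was the highest, and replicate 2 of 41585 lay 1.16-fold above the highest competent library. Ifih1 held 66 counts over the deficient libraries and 2 over the competent ones, a ratio of 17.3 to 549 by counting error at 95%. The nucleic acid sensor gene Zbp1 rose by 3.80 ± 0.48 (edgeR adjusted p = 0.00099), with 17.1, 12, 15.2 and 21.3 CPM in the deficient libraries against 0.154, 0.811 and 2.79 CPM in the competent ones. The sensor RIG-I, gene Ddx58, was variable in the competent class (4.93 to 107 CPM) and overlapped the deficient libraries (126, 107, 82.9 and 96.7 CPM), and it was not called (0.96 ± 0.56, edgeR adjusted p = 0.241). Adar, which edits double-stranded RNA, had 0.06 ± 0.17 (edgeR adjusted p = 0.827).

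Other separating members were Oas1a (2.70 ± 0.25), Oasl1 (3.10 ± 0.40), the antiviral radical-SAM enzyme gene Rsad2 (3.86 ± 0.40), Ifi35 (3.14 ± 0.32), Gbp3 (5.57 ± 0.69), Parp14 (1.92 ± 0.24), the immunity-related GTPase genes Irgm1 (4.0 ± 0.57), Irgm2 (1.31 ± 0.28) and Igtp (1.79 ± 0.26), Ifitm3 (1.66 ± 0.32) and the class I histocompatibility gene H2-D1 (1.32 ± 0.22), which has close relatives that share reads. H2-D1 and Ifitm3 lost their calls with line 41585 left out and Irgm2 with line KO left out.

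The promoters of this list often carry the spaced repeat GAAANNGAAA, the core of interferon-stimulated elements, searched on both strands in 250 bases before and 50 after the start. It stood in 15 of 28 tested members with a promoter sequence (53.6%), in 3.57% of all 11052 tested genes with one, and in 5.71% of the separating higher and 2.43% of the lower genes. Within the list it stood in 9 of 16 separating members (56.2%) and in 6 of 12 of the others (50%). The promoter of Gbp2 is shown as an example, from RefSeq (GRCm38.p6, chr3:142620413-142620712, plus strand), with the repeat, here read on the other strand, in capitals.

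Gbp2 promoter: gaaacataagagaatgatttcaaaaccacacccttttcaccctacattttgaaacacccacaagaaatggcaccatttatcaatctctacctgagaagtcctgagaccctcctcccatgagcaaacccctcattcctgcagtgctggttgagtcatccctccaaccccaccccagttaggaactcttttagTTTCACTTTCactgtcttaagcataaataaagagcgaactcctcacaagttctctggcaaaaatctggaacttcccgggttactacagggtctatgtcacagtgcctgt

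Beyond the interferon list, the largest rises were in genes of varied function. Pglyrp3, a peptidoglycan recognition protein, measured 8.89, 4.61, 4.92 and 3.6 CPM in the deficient libraries, while the competent libraries together held 2 counts, a ratio of 46.6 to 1422 by counting error. Pglyrp1, of the same family, measured 7.67, 6.15, 10.9 and 6.04 CPM in the deficient libraries, against at most 0.376 CPM in the competent ones (6.03 ± 0.55, edgeR adjusted p = 0.000254). Sh3rf2, a ubiquitin ligase, had the widest gap of the 89 named genes, 15.8-fold between nearest libraries, with 14.1, 15.2, 19.7 and 16.7 CPM in the deficient libraries against at most 0.428 CPM in the competent ones (6.50 ± 0.32, edgeR adjusted p = 5.77e-05). Gbp2b (6.68 ± 0.53), the aldehyde oxidase gene Aox3 (5.87 ± 0.52) and the renin gene Ren1 (5.86 ± 0.60) were likewise near 0 in the competent class.

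Of the 12 genes of largest rise, Krtdap and Oc90 each had 1 low deficient library. Krtdap, a keratinocyte differentiation protein, measured 22.4, 29.5 and 19.6 CPM in 3 deficient libraries and 0.899 CPM in replicate 2 of 41585, against a competent maximum of 0.752 CPM (6.0 ± 0.51, edgeR adjusted p = 0.000212). Oc90, the otoconin of the inner ear, measured 11, 8.46, 11.5 and 1.67 CPM in the deficient libraries, against at most 0.31 CPM in the competent ones (5.81 ± 0.51, edgeR adjusted p = 0.000233). Both separated all 12 libraries, Krtdap by 1.12-fold.

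**Figure D3:**
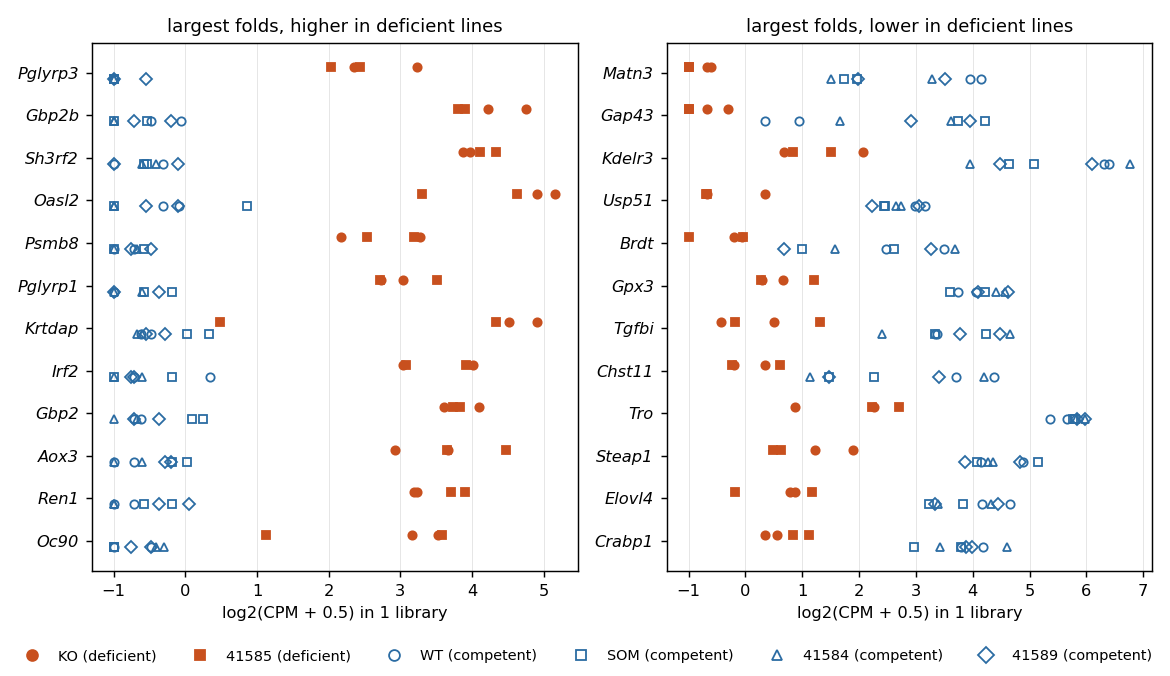
Level in each of the 12 libraries, as log2(CPM + 0.5) on the horizontal axis, of the 12 named genes of largest rise (left) and of largest fall (right) in the deficient lines, with marker shapes for the lines. Filled orange markers (deficient) lie to one side of all open blue markers (competent) in every row, and replicate 2 of 41585 lies near the blue markers in Krtdap.

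The largest falls included matrix, chromatin and X-linked genes. Matn3, which encodes the cartilage matrix protein matrilin 3 (chromosome 12, 8947929 to 8972028), held 2 counts over the 4 deficient libraries, against 2.33, 6.33 and 17.3 CPM (lowest, median, highest) in the competent ones, a ratio of competent to deficient of 35.6 to 1069 by counting error. Kdelr3, a receptor that returns proteins to the endoplasmic reticulum, measured 1.1, 3.69, 2.34 and 1.28 CPM in the deficient libraries, against 14.9, 50.6 and 109 CPM in the competent ones (−4.7 ± 0.49, edgeR adjusted p = 0.000468). Tro, the X-linked gene of the adhesion protein trophinin (X chromosome, 150645304 to 150657583), measured 1.34, 4.31, 4.21 and 6.04 CPM in the deficient libraries, against 40.5, 55.8 and 62.8 CPM in the competent ones. Tro varied little within the competent class, and the nearest libraries of the classes were 6.28-fold apart (−3.77 ± 0.30, edgeR adjusted p = 0.000166).

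Gpx3, a secreted glutathione peroxidase, measured 0.731, 1.08, 0.702 and 1.8 CPM in the deficient libraries, against 11.6, 17.4 and 24.1 CPM in the competent ones (−4.02 ± 0.35, edgeR adjusted p = 0.00022). Usp51, an X-linked deubiquitinase gene, fell by 4.49 ± 0.51, the TGF-beta-induced matrix gene Tgfbi by 3.94 ± 0.43, the metalloreductase gene Steap1 by 3.65 ± 0.39, the very long chain fatty acid elongase gene Elovl4 by 3.65 ± 0.35 and the retinoic acid binding protein gene Crabp1 by 3.58 ± 0.37 on the log2 scale. Each of these 5 was called whichever line was left out. Gap43, a growth cone protein, held 3 counts over the deficient libraries, against 0.77, 9.43 and 18 CPM in the competent ones, with the WT libraries lowest among them. Its ratio of competent to deficient was 29.7 to 425 by counting error, and its call was lost with no filter on low counts (edgeR adjusted p = 0.112) and with line KO (0.0531) or 41585 (0.105) left out. The chondroitin sulfotransferase gene Chst11 (−3.81 ± 0.71) lost its call with line KO (edgeR adjusted p = 0.0527) or 41585 (0.061) left out.

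Epithelial adhesion and keratin genes were higher in the deficient lines wherever they were called. Of 21 tested members, 11 were separating higher and 0 lower, beside 9.12% and 5.4% of all tested genes, with a median log2 fold change of 1.86. The count was 11 with line 41585 left out and 12 with line KO left out, and 12 against either set of competent libraries. Over all 15505 tested genes it was 940 and 1245, and 1311 against the SOM-side and 2620 against the WT-side libraries. This list too was chosen with earlier results of these data known. Krt8, a keratin of simple epithelia (chromosome 15, 101996698 to 102004482), measured 116, 115, 191 and 28.5 CPM in the deficient libraries, against 1.71, 4.14 and 9.32 CPM in the competent ones (4.7 ± 0.25, edgeR adjusted p = 5.77e-05). Its partner Krt18 measured 69.4, 77.0, 78.9 and 16.1 CPM in the deficient libraries, against 2.17, 6.55 and 12.3 CPM in the competent ones (3.13 ± 0.28, edgeR adjusted p = 0.000233). In both keratins replicate 2 of 41585 was the lowest deficient library, and both have processed copies elsewhere that can share reads.

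Krt19, a further simple keratin, measured 26.5, 14.9, 45.8 and 32.9 CPM in the deficient libraries, against 0.94, 2.04 and 3.19 CPM in the competent ones (3.83 ± 0.35, edgeR adjusted p = 0.000256). Cldn7, a tight junction claudin, measured 23.4, 19.5, 26.3 and 15.4 CPM in the deficient libraries, against 0.466, 1.44 and 6.16 CPM in the competent ones (3.28 ± 0.50, edgeR adjusted p = 0.00254). Grhl2, a transcription factor of epithelial genes, measured 161, 119, 128 and 95.8 CPM in the deficient libraries, against 14.3, 33.6 and 68.5 CPM in the competent ones, with SOM replicate 2 the highest (1.86 ± 0.17, edgeR adjusted p = 0.000251). The membrane protease gene St14 rose by 2.01 ± 0.18, the splicing regulator gene Esrp1 by 2.45 ± 0.45, Cldn3 by 3.33 ± 0.51, Cldn4 by 2.01 ± 0.19, the adhesion gene Epcam by 1.46 ± 0.20 and E-cadherin, Cdh1, by 1.01 ± 0.12.

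The mesenchymal and fibroblast list had 2 of 11 tested members separating lower and 0 higher, with a median of −0.60. The shares of all tested genes were 5.4% and 9.12%. Zeb1, a repressor of epithelial genes, measured 4.02, 8.3, 5.85 and 7.06 CPM in the deficient libraries, against 19.7, 23.7 and 42.2 CPM in the competent ones (−2.09 ± 0.26, edgeR adjusted p = 0.000866). Snai2, a related repressor, was under 1 CPM in the deficient libraries (−2.47 ± 0.52, edgeR adjusted p = 0.0101) and lost its call without replicate 1 of 41589 (edgeR adjusted p = 0.0511). Vimentin, Vim, had 0.17 ± 0.41 and was not called. Of the 11 values 4 were above 0, those of Vim, Snai1, Cdh2 and Twist1. Snai1 (1.41 ± 0.48, edgeR adjusted p = 0.0676), Cdh2 (0.92 ± 0.34, 0.0845) and Twist1 (0.09 ± 0.47, 0.905) were not called either. Against the WT-side libraries 1 member, Cdh2, was separating higher (1.34, edgeR adjusted p = 0.0147) and 4 lower. Over all 15505 tested genes 2620 and 2208 were.

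Extracellular matrix and integrin genes divided, with 6 of 21 tested separating higher and 4 lower (median 0.06), beside 9.12% and 5.4% of all tested genes. The integrin subunit gene Itgav measured 160, 145, 106 and 158 CPM in the deficient libraries, against 31.2, 54.6 and 79.8 CPM in the competent ones (1.40 ± 0.16, edgeR adjusted p = 0.000594). Itga5 (1.20 ± 0.19), Itga3 (1.08 ± 0.26) and Itgb1 (0.56 ± 0.16), further integrin subunits, the matricellular gene Sparc (1.34 ± 0.27) and the basement membrane gene Nid1 (1.04 ± 0.19) were the other higher ones. Itga3 lost its call without replicate 1 of 41585, replicate 2 of WT or replicate 1 of 41589. Itgb1 lost its call without replicate 1 of KO, replicate 2 of 41585, replicate 2 of WT, replicate 1 of 41584 or either library of 41589. The genes Sparc and Lama1 lost theirs with line KO or line 41585 left out. Besides Matn3, the lower ones were the proteoglycan genes Vcan (−1.60 ± 0.23) and Acan (−2.70 ± 0.54) and the laminin gene Lama1 (−1.57 ± 0.34). The integrin gene Itga6, at −0.06 ± 0.18 (edgeR adjusted p = 0.836), was not called.

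**Figure D4:**
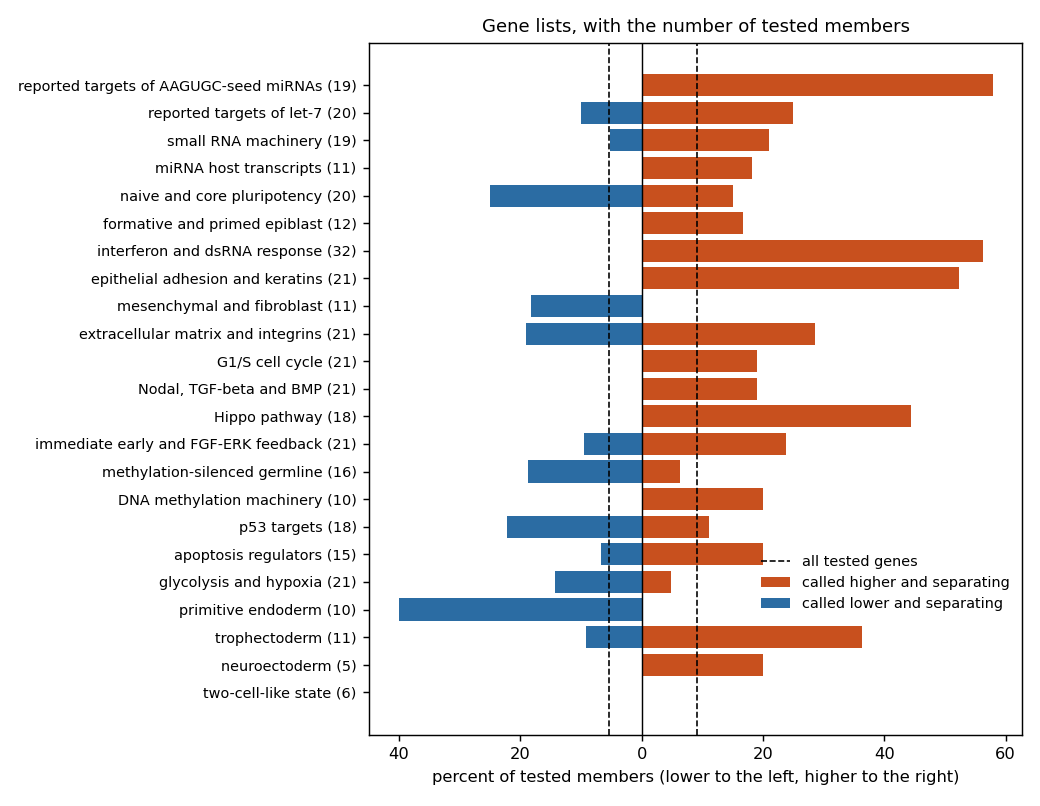
Percent of the tested members of each gene list that were called and separating, higher in the deficient lines to the right (orange) and lower to the left (blue), with the number of tested members after each name. The dashed lines mark the shares of all tested genes, 9.12% higher and 5.4% lower, and the AAGUGC targets, interferon genes and epithelial genes reach furthest to the right. Lists and members were chosen with earlier results of these data known.

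Pluripotency genes split between higher and lower. Of 20 tested members, 3 were separating higher and 5 lower, beside 9.12% and 5.4% of all tested genes, with a median of −0.23. Klf4, one of the reprogramming factors (chromosome 4, 55527143 to 55532466), measured 53.7, 51.7, 50.5 and 61.4 CPM in the deficient libraries, against 173, 227 and 374 CPM in the competent ones, and the nearest libraries were 2.8-fold apart (−2.04 ± 0.23, edgeR adjusted p = 0.00066). Klf2, its relative, measured 175, 162, 178 and 214 CPM in the deficient libraries, against 51.3, 66.2 and 73.7 CPM in the competent ones (1.57 ± 0.14, edgeR adjusted p = 0.000251). These members of 1 family thus moved in opposite directions, each by more than the spread of its libraries.

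The factor genes Tbx3 and Klf5 were lower as well. Tbx3 measured 121, 132, 126 and 116 CPM in the deficient libraries, against 199, 239 and 307 CPM in the competent ones (−0.97 ± 0.14, edgeR adjusted p = 0.00185). Klf5 measured 47.6, 43.5, 49.6 and 60.8 CPM in the deficient libraries, against 68.3, 99.8 and 129 CPM in the competent ones (−0.95 ± 0.16, edgeR adjusted p = 0.00408). The Akt cofactor gene Tcl1 fell by 1.5 ± 0.28 on the log2 scale, and Zfp42, or Rex1, had −0.45 ± 0.13 and lost its call without replicate 2 of 41585, of WT or of SOM, either library of 41584 or replicate 1 of 41589. The growth factor gene Fgf4 (1.23 ± 0.26) and Dppa5a (0.64 ± 0.12) were the other higher members, and Fgf4 lost its call with line KO or line 41585 left out. The core factors were not called: Pou5f1, also called Oct4, had 0.66 ± 0.36, Sox2 −0.32 ± 0.17 and Nanog −0.21 ± 0.13.

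Formative and primed epiblast genes had 2 of 12 tested members separating higher and 0 lower (median 0.57), beside 9.12% and 5.4% of all tested genes. The first was Grhl2. The second was the de novo methyltransferase gene Dnmt3b, at 267, 256, 241 and 287 CPM in the deficient libraries, against 56.4, 129 and 226 CPM in the competent ones (1.04 ± 0.24, edgeR adjusted p = 0.0149). Dnmt3b lost its call without replicate 2 of WT, replicate 1 of 41584 or replicate 1 of 41589 (highest edgeR adjusted p = 0.137). It was not called against the SOM-side libraries alone (0.50, edgeR adjusted p = 0.19). Against the WT-side libraries 6 members were separating higher and 1, Sfrp2, lower, beside 2620 and 2208 of all 15505 tested genes. Against all competent lines 4 were called higher and 1 lower, beside 13.6% and 8.35% of all tested genes. The lower one was Etv4 (−1.24 ± 0.33, edgeR adjusted p = 0.0276), which lost its call without replicate 2 of 41585 or of WT. Fgf5 and Sox3 did not pass the filter on low counts. The epiblast factor gene Otx2 was called without separating (1.56 ± 0.29), with 60.9, 25.5, 32.9 and 139 CPM in the deficient libraries against 7.4, 16.9 and 42.1 CPM in the competent ones, and lost its call without replicate 1 of KO (edgeR adjusted p = 0.0542).

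Among 10 tested genes of the DNA methylation machinery, 2 were separating higher and 0 lower (median 0.03), beside 9.12% and 5.4% of all tested genes. Beside Dnmt3b this was Tet3, a 5-methylcytosine oxidase gene, with 21.6, 19.1, 21.9 and 25.3 CPM in the deficient libraries, against 7.14, 12.6 and 18 CPM in the competent ones (0.86 ± 0.23, edgeR adjusted p = 0.0278). Tet3 lost its call without replicate 2 of WT, either library of 41584 or replicate 1 of 41589, and reached edgeR adjusted p = 0.177 with line 41585 left out. Its relative Tet1 was called lower without separating (−0.72 ± 0.19), a call lost without replicate 2 of SOM, either library of 41584 or replicate 1 of 41589.

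Germline genes that DNA methylation silences had 3 of 16 tested members separating lower and 1 higher, beside 5.4% and 9.12% of all tested genes. The median was −1.03, and 7 lower and 2 higher were called, beside 8.35% and 13.6% of all tested genes. Sycp3, of the synaptonemal complex, measured 18.8, 16.6, 14.9 and 10 CPM in the deficient libraries, against 47.0, 65.7 and 172 CPM in the competent ones (−2.27 ± 0.35, edgeR adjusted p = 0.00238). Brdt, a testis bromodomain protein gene, measured 0.365, 0.461, 0.468 and 0.0 CPM in the deficient libraries, against 1.1, 5.34 and 12.4 CPM in the competent ones (−4.13 ± 0.53, edgeR adjusted p = 0.00107). Dazl, which encodes an RNA-binding protein of germ cells, separated narrowly, with 29.9 CPM as its highest deficient and 30.0 CPM as its lowest competent value (−1.87 ± 0.44, edgeR adjusted p = 0.016). Leaving out WT replicate 2 or 41589 replicate 1 ended its call. The counts depended on the competent set, as they did over all tested genes. Against the WT-side libraries 9 members were separating lower, beside 2208 of all 15505 tested genes. Against the SOM-side libraries 2 were, beside 459. The higher member was Rpl10l (1.21 ± 0.14), a retrocopy of a ribosomal protein gene whose reads can be shared.

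Of 10 tested primitive endoderm genes, 4 were separating lower and 0 higher, beside 5.4% and 9.12% of all tested genes, with a median of −1.40. The 5 markers of this cell type summed to 5.23 to 8.09 CPM in deficient and 6.95 to 53.5 CPM in competent libraries. In such bulk samples fewer cells of a type and less RNA per cell cannot be told apart. Dab2, an endocytic adaptor gene, measured 1.95, 0.923, 0.351 and 0.514 CPM in the deficient libraries, against 3.93, 6.45 and 33.4 CPM in the competent ones (−3.35 ± 0.73, edgeR adjusted p = 0.0116). The factor genes Gata6 (−4.04 ± 0.86) and Sox7 (−3.17 ± 0.61) and the receptor gene Pdgfra (−2.21 ± 0.59) were the others, all at a few CPM. Pdgfra also lost its call without replicate 1 of 41589. Each of the 4 lost its call with line KO or line 41585 left out, when 1 member was called lower. Against the SOM-side libraries 4 members were separating lower and 1 higher, the factor gene Gata4 (1.99, edgeR adjusted p = 0.0258). Over all 15505 tested genes 459 were lower and 1311 higher there.

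Trophectoderm genes had 4 of 11 tested members separating higher and 1 lower (median 1.19), beside 9.12% and 5.4% of all tested genes. The higher ones were Krt8 and Krt18, the factor gene Tead4 and the factor gene Hand1, which reached 1.83, 2.15, 1.05 and 0.385 CPM in the deficient libraries against at most 0.219 CPM in the competent ones (3.02 ± 0.56, edgeR adjusted p = 0.00607). Hand1 was not called with line KO left out (2.11, edgeR adjusted p = 0.0703). The lower one was Eomes, an early trophoblast factor (−0.91 ± 0.28, edgeR adjusted p = 0.0472), whose call held only without replicate 2 of KO, replicate 1 of 41585 or replicate 2 of 41589 among the settings that left out 1 library. Cdx2, the defining factor of this lineage, was under 1 CPM everywhere, and the 5 markers summed to 5.52 to 15.3 CPM in deficient and 6.46 to 9.08 CPM in competent libraries. Elf5 was called without separating (4.35 ± 0.73), but not with line KO left out.

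Of 5 tested neuroectoderm genes 1 was separating higher and 0 lower (median 0.60), beside 9.12% and 5.4% of all tested genes. This was Nes, the intermediate filament nestin, with 41.0, 44.9, 56.4 and 39.9 CPM in the deficient libraries, against 12.4, 17.2 and 22.1 CPM in the competent ones (1.45 ± 0.20, edgeR adjusted p = 0.00149). Of 6 tested genes of the two-cell-like state, 0 separated, with a list median of 0.99. Zscan4d alone was called (1.42 ± 0.34, edgeR adjusted p = 0.0187), beside 13.6% of all tested genes called higher. Zscan4d lost its call without replicate 1 of KO or either library of 41589. With line KO left out 3 members, Zscan4d, Tcstv3 and Zfp352, were called and separating higher, beside 1245 of all 15505 tested genes.

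Genes of the Hippo pathway were separating higher in 8 of 18 tested members and lower in 0, beside 9.12% and 5.4% of all tested genes, with a median of 0.46. The pathway restrains the coactivator Yap1, which acts through Tead factors. Among its upstream members Lats2, described above, and Nf2 were higher, the merlin gene Nf2 with 258, 227, 234 and 335 CPM in the deficient libraries, against 97.1, 139 and 191 CPM in the competent ones (0.96 ± 0.17, edgeR adjusted p = 0.00504). Nf2 lost its call with line 41585 left out (edgeR adjusted p = 0.0703). Among the factors Tead4 measured 60.5, 55.7, 59.2 and 61.7 CPM in the deficient libraries, against 19.2, 26.7 and 34.2 CPM in the competent ones (1.19 ± 0.15, edgeR adjusted p = 0.000975). Yap1 (0.52 ± 0.15) and Tead3 (1.30 ± 0.37) were called and separating but lost the call without any 1 of replicate 2 of WT, replicate 2 of SOM, either library of 41584 and replicate 1 of 41589. Single libraries of 41585 also decided these calls, replicate 2 for Yap1 and replicate 1 for Tead3, as did replicate 2 of 41589 for Yap1.

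The Yap1 target genes Ccn1 and Ccn2 were higher too, while Ankrd1 of the list did not pass the filter on low counts. Ccn1, a matricellular protein gene, measured 26.5, 35.2, 30.9 and 30.8 CPM in the deficient libraries, against 2.31, 7.5 and 9.76 CPM in the competent ones (2.20 ± 0.37, edgeR adjusted p = 0.00366). Ccn2, of the same family, measured 78.6, 80.1, 56.5 and 76.5 CPM in the deficient libraries, against 15.6, 29.4 and 43.8 CPM in the competent ones (1.36 ± 0.26, edgeR adjusted p = 0.00675), and lost its call with line KO left out. The eighth member, the junction protein gene Amotl2, had 0.69 ± 0.21 (edgeR adjusted p = 0.0483) and lost its call without any 1 of 8 libraries, all but replicate 2 of KO, replicate 1 of 41585, replicate 2 of SOM and replicate 2 of 41589. The count of 8 was 4 with line KO left out, 4 with line 41585 left out and 4 against the SOM-side libraries. Over all 15505 tested genes the count of 1414 was 1245, 940 and 1311 in these settings. Against the WT-side libraries 1 member, Tead1, was separating lower (−0.85, edgeR adjusted p = 0.00566).

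Nodal, TGF-beta and BMP genes had 4 of 21 tested members separating higher and 0 lower (median 0.51), beside 9.12% and 5.4% of all tested genes. With or without separation 7 higher and 2 lower were called, beside 13.6% and 8.35% of all tested genes. Beside Lefty1 and Tgfbr2 the separating members were Id2, an inhibitor of helix-loop-helix factors, and Smad6, an inhibitory Smad. Id2 measured 38.0, 50.7, 31.5 and 35.1 CPM in the deficient libraries, against 4.59, 10.9 and 13.5 CPM in the competent ones (1.96 ± 0.21, edgeR adjusted p = 0.000544). Smad6, at 2.56, 1.69, 3.4 and 2.31 CPM in the deficient libraries against 0.548, 1.05 and 1.46 CPM in the competent ones (1.39 ± 0.38, edgeR adjusted p = 0.0296), lost its call without replicate 1 of KO, 41585, 41584 or 41589. The ligand gene Bmp4 was called lower without separating (−1.32 ± 0.28), though not without replicate 2 of WT (edgeR adjusted p = 0.0936).

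Immediate early and FGF-ERK feedback genes had 5 of 21 tested members separating higher and 2 lower (median 0.46), beside 9.12% and 5.4% of all tested genes. Jun, a subunit of AP-1, measured 22.2, 19.1, 23.3 and 13.7 CPM in the deficient libraries, against 1.69, 2.7 and 6.01 CPM in the competent ones (2.71 ± 0.27, edgeR adjusted p = 0.000366). Dusp1, a phosphatase of MAP kinases, measured 65.3, 60, 75.4 and 58.2 CPM in the deficient libraries, against 10.2, 18.2 and 24.1 CPM in the competent ones (1.92 ± 0.23, edgeR adjusted p = 0.000821). Klf6 (1.35 ± 0.20), Fos (1.23 ± 0.24) and Dusp5 (1.55 ± 0.26) were the other higher members. The feedback inhibitor Spry2 measured 30.3, 29.2, 26.5 and 42.4 CPM in the deficient libraries, against 70.3, 72.8 and 88.5 CPM in the competent ones, and the phosphatase gene Dusp4 was lower with it. Their log2 fold changes were −1.22 ± 0.16 for Spry2 (edgeR adjusted p = 0.001) and −1.90 ± 0.39 for Dusp4 (edgeR adjusted p = 0.00889). Fos lost its call with line KO left out and Dusp4 with line 41585 left out.

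Regulators of the G1/S step had 4 of 21 tested members separating higher and 0 lower (median 0.46), beside 9.12% and 5.4% of all tested genes. Cdkn2a, which encodes the inhibitors p16 and p19Arf, measured 2.92, 3.23, 5.74 and 2.44 CPM in the deficient libraries, against 0.0, 0.292 and 1.03 CPM in the competent ones (3.36 ± 0.48, edgeR adjusted p = 0.00169). Its neighbour Cdkn2b rose by 1.93 ± 0.46 and lost its call with line KO, 41585 or 41584 left out. The cyclin gene Ccne2 measured 59.4, 67.4, 48.9 and 42.3 CPM in the deficient libraries, against 17.2, 23.2 and 38.8 CPM in the competent ones (1.12 ± 0.18, edgeR adjusted p = 0.00306). Cyclin D1, Ccnd1, measured 229, 234, 226 and 239 CPM in the deficient libraries, against 29.6, 90.0 and 163 CPM in the competent ones. The deficient libraries were nearly equal for Ccnd1 while the competent ones ranged widely, with the WT-side libraries low and the SOM-side libraries high. Its log2 fold change of 1.30 ± 0.36 (edgeR adjusted p = 0.0299) became 0.63 against the SOM-side libraries alone (edgeR adjusted p = 0.0758), and with no filter on low counts the adjusted p was 0.194. Leaving out any 1 of WT replicate 2, SOM replicate 1, 41584 replicate 1 and 41589 replicate 1 also ended its call (highest edgeR adjusted p = 0.119). Against the WT-side libraries the list had 10 separating higher members, beside 2620 of all 15505 tested genes. In that setting 1 member was lower, the retinoblastoma gene Rb1 (−1.61, edgeR adjusted p = 0.000186), beside 2208. Against the SOM-side libraries 3 members were higher, beside 1311.

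Targets of p53 had 2 of 18 tested members separating higher and 4 lower (median 0.13), beside 9.12% and 5.4% of all tested genes. Mdm2, the ubiquitin ligase that holds p53 down, measured 119, 157, 110 and 111 CPM in the deficient libraries, against 190, 240 and 361 CPM in the competent ones (−1.03 ± 0.17, edgeR adjusted p = 0.00366). Plk2, a kinase gene (−1.23 ± 0.19), Zmat3, an RNA-binding protein gene (−0.96 ± 0.17), and Pmaip1, the BH3-only gene Noxa (−1.23 ± 0.25), fell with it, and Pmaip1 lost its call with line 41585 left out. The higher members were Ei24 and the antiproliferative gene Btg2 (0.98 ± 0.22), which lost its call without replicate 1 of 41589 (edgeR adjusted p = 0.0614).

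Apoptosis regulators had 3 of 15 tested members separating higher and 1 lower (median 0.37), beside 9.12% and 5.4% of all tested genes. Beside Casp2, the initiator caspase gene Casp8 measured 4.51, 5.84, 7.26 and 6.04 CPM in the deficient libraries, against 1.1, 2.47 and 2.96 CPM in the competent ones (1.42 ± 0.32, edgeR adjusted p = 0.0141). Casp8 lost its call with line 41585 (edgeR adjusted p = 0.126) or line 41584 (0.0542) left out. The pore-forming gene Bak1 (1.26 ± 0.30, edgeR adjusted p = 0.0181) and the BH3-only gene Hrk, which was the lower one (−1.96 ± 0.57, edgeR adjusted p = 0.0377), lost their calls without replicate 2 of WT or replicate 1 of 41589. Hrk also lost its call without replicate 1 of KO or of 41584. It came to −0.81 against the SOM-side libraries alone (edgeR adjusted p = 0.255).

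Glycolysis and hypoxia genes had 3 of 21 tested members separating lower and 1 higher (median −0.06), beside 5.4% and 9.12% of all tested genes. Slc2a3, a high-affinity glucose transporter gene, measured 569, 514, 437 and 451 CPM in the deficient libraries, against 1071, 1267 and 1972 CPM in the competent ones (−1.53 ± 0.17, edgeR adjusted p = 0.000619). The glycolytic kinase gene Pgk1, on the X chromosome, measured 557, 551, 534 and 465 CPM in the deficient libraries, against 691, 892 and 1355 CPM in the competent ones (−0.82 ± 0.16, edgeR adjusted p = 0.00853). Pgk1 came to −0.50 against the SOM-side libraries alone (edgeR adjusted p = 0.188). The mitophagy receptor gene Bnip3 was lower (−1.0 ± 0.29), though not called without replicate 1 of 41589. The phosphofructokinase gene Pfkm was higher (0.76 ± 0.15), though not called without replicate 2 of 41584.

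**Figure D5:**
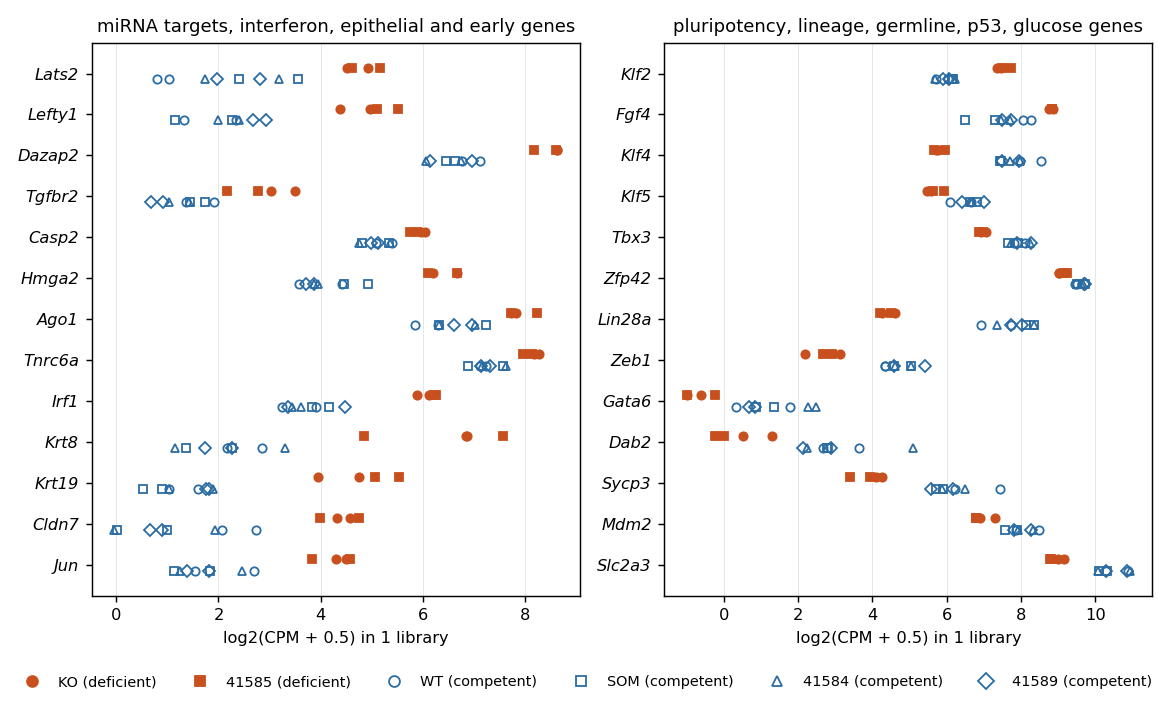
Level in each of the 12 libraries, as log2(CPM + 0.5) on the horizontal axis, of genes chosen from the lists, higher in the deficient lines on the left and, except for Klf2 and Fgf4, lower on the right, with marker shapes for the lines. Filled orange markers (deficient) do not overlap the open blue markers (competent) in any row, and Klf2 and Fgf4 lie to the right of blue while Klf4, Klf5 and Lin28a lie to the left.

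Separating genes lay on all autosomes and the X chromosome. Chromosome 15 holds the named genes Krt8, Krt18, Oc90, Dazap2, Itga5, Pfkm, Tnrc6b and Grhl2 among the higher and Kdelr3 and Dab2 among the lower. Of its 596 tested genes 64 were separating higher (10.7%) and 14 lower (2.35%), beside 9.12% and 5.4% of all tested genes. The median log2 fold change over all its genes was 0.17. The share of higher genes was 10.6% on chromosome 11. Among the deficient libraries, replicate 2 of 41585 was lowest for Krt8 (28.5 CPM), Krt18 (16.1), Oc90 (1.67), Dazap2 (289), Itga5 (134), Tnrc6b (209) and Grhl2 (95.8). It was not lowest for Pfkm, Kdelr3 or Dab2, and a difference of this library along chromosome 15 was not tested. The 11 tested Y-linked and 20 mitochondrially encoded genes held 0 separating genes.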

How the data were processed

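Raw counts of reads per gene, 1 whole number per gene and library, were deposited by the authors for 47643 Ensembl genes in 12 libraries; reads were aligned with STAR 2.4.2a to mm10 (GRCm38), per the submitters' processing notes, and for the counting program and annotation release: not given in the sources used here. GENCODE M21 gave a symbol to 47224 genes. Every row names a gene.

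The line was taken as the unit of replication. Counts were summed over the 2 libraries of a line and 2 deficient lines were tested against 4 competent lines with edgeR 4.0.16 in R 4.3.3 (robust quasi-likelihood, TMM, filterByExpr by class, 4 residual degrees of freedom), adjusted by Benjamini-Hochberg over 15505 genes at 0.05. "edgeR adjusted p" is that value, and folds are log2, deficient over competent, ± standard error. Separation used TMM-scaled CPM of single libraries. Nothing says that libraries of a line were separate cultures, so a p-value reflects the spread between the lines as sampled, which may be technical. Ratios and their 95% intervals for genes of 1 to 3 counts cover counting error only. The script was tested on simulated counts.

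Named genes were Dicer1, the 12 separating genes of largest fold in each direction with a mean of at least 5 CPM in the higher class and an ordinary symbol, up to 4 separating members per list by smallest adjusted p, and those needed to say what a list did. Of 377 genes in 23 lists, 346 were tested. The members and lists were chosen with earlier results of these data known. Alternatives were other units of replication, RLE scaling, no filter, DESeq2 1.42.0, each library or line left out, and, chosen after seeing the data, each side of the second principal component. Sites were searched in the longest coding-transcript 3′ UTR of 13313 tested genes. Single members of 2 lists are not reported here.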

Additional observations from a re-analysis of the deposited data

Results flagged for a closer look

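In 178 groups of 4 or 8 libraries, 1 group per class and named gene, the highest or lowest library was compared with its class on the log2(CPM + 0.5) scale by Dixon's ratio, a test that chance passes in about 1 in 20 groups. It picked out 13 libraries, of which 5 were replicate 2 of 41585. That library stood low among the deficient libraries for Krtdap (0.899 CPM), Oc90 (1.67 CPM), Krt18 (16.1 CPM), Dazap2 (289 CPM) and Brdt (0.0 CPM). That the classes did not overlap for these genes was a condition for naming them, and Brdt was low throughout the class.

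Among the other deficient libraries, replicate 2 of KO was high for Usp51 (0.769 CPM) and low for Mir142hg (1.23 CPM), and replicate 1 of 41585 was high for Itga5 (286 CPM). Among the competent libraries, replicate 2 of 41589 was the sole one with reads of Pglyrp3 (0.183 CPM), SOM replicate 2 was high for Nr2f2 (0.564 CPM) and SOM replicate 1 low for Vcan (29.1 CPM). Replicate 1 of 41584 was low for Id2 (4.59 CPM) and high for Pdgfra (13.9 CPM).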

How the results depend on the processing

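Of 2314 gene values under alternatives, 2202 kept direction and side of the threshold, 108 lost the call, 4 gained it (all Dicer1) and 0 reversed. All of the 89 named genes but Dicer1 were chosen as called and separating. Their direction could therefore hardly reverse, and the 0 is no measure of robustness. With 1 library left out, called genes ranged from 1366 to 2349 higher and from 608 to 1748 lower, separating genes from 1577 to 1900 upward and 1141 to 1438 downward, and genes meeting both conditions from 1145 to 1665 higher and from 506 to 1061 lower.

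With 12 libraries as replicates 2219 genes were called lower, and with 1 mean per line 2162. With line KO left out 1323 were called higher and 722 lower, with line 41585 left out 944 and 380, with line 41584 left out 1355 and 620, and with line 41589 left out 824 lower. Against the WT-side competent libraries 2352 were called lower, and against the SOM-side libraries 480. Separation upward held for 2660 genes without line KO, 2399 without line 41585 and 3276 against the WT-side libraries. Separation downward held for 2381 without line KO, 3145 against the WT-side and 1741 against the SOM-side libraries. Both conditions were met by 940 higher and 367 lower genes without line 41585, by 554 lower genes without line 41584, by 2620 higher and 2208 lower genes against the WT-side libraries, and by 459 lower genes against the SOM-side libraries. The cause of these shifts was not tested; leaving out a library or line also removes samples. DESeq2 called 2285 genes higher and 1735 lower, RLE scaling 2063 and 1368, and no filter 2435 and 1512.

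Among called genes named in the text, calls that held without each single library but not without a line, beyond those given beside the values, were those of Mbd2 without KO, 41585 or 41584, Pgk1, Dab2 and Gata6 without 41585, and Gata6 and Sox7 without KO. Members that changed the picture of a list were Acvr2a, separating lower without line KO and against the WT-side libraries, and Bmp4, separating lower without line 41585 and against the SOM-side libraries, both in the Nodal list. Against the WT-side libraries Tdgf1, Tet1 and Sox1 were separating lower and Cdh2 higher, and against the SOM-side libraries Etv4 and Dnmt3l lower. Rb1 was also separating lower without line KO.

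With the replicate number as a block the 12 libraries gave 2483 genes called higher and 2159 lower. The numbers did not pair the samples across all lines: deviations of same-numbered libraries correlated at over 0.1 in 5 of 15 pairs of lines, from −0.074 to 0.476. The highest values were 0.476 for WT with 41589 and 0.312 for 41585 with 41584. Whether the libraries of some lines were handled together was not tested.

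Only 4 residual degrees of freedom, low counts in genes near 0 CPM, and the unequal likeness of competent libraries limit the calls. Separation becomes easier as libraries are removed, so its counts are not comparable between sets of unequal size.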
